A study of Homo sapiens with 27 samples.

Results

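The 10 genes described here encode the repressor partners through which KRAB and ZEB1 act: TRIM28, SETDB1, CBX1, CBX3, CBX5, CTBP1, CTBP2, HDAC1, HDAC2 and KDM1A. They were chosen by name, as known cofactors, from the 57165 genes of the deposited count table, and all 10 had estimated counts in each of the 27 libraries. The rule used none of their values. A KRAB domain recruits TRIM28 (also called KAP1), a scaffold that brings SETDB1, which trimethylates lysine 9 of histone H3, together with the HP1 proteins that bind this mark (CBX5 is HP1 alpha, CBX1 is HP1 beta and CBX3 is HP1 gamma) and a deacetylase complex, NuRD. ZEB1, a zinc finger repressor of epithelial genes that binds E-boxes, recruits the CtBP corepressors CTBP1 and CTBP2, which assemble with the deacetylases HDAC1 and HDAC2 and the histone demethylase KDM1A (LSD1). Both arms thus meet in this set: the KRAB domain of the construct used to silence ZEB1 acts through the former, and the protein that was silenced works in part through the latter.

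RNA was sequenced from SUM159 and MDA-MB-231, human triple negative breast cancer lines of mesenchymal type, as 50-base single-end reads in 9 groups of 3 libraries. Each line was left untransduced (wild type) or carried a lentiviral dCas9-KRAB under the human ubiquitin C promoter, selected with puromycin and given either no guide (No gRNA), gRNA 4 alone or all 4 guides against the ZEB1 promoter (All gRNA). The 4 conditions of SUM159 were sequenced in run 1, and a further SUM159 wild type group in run 2 together with every MDA-MB-231 library. Per the methods the lines grew in different media, with insulin and hydrocortisone listed for SUM159 only. The puromycin dose differed between the lines as well. The methods call the replicates individual clones, which limits each group as a model of its line, and a p-value then measures the spread between these libraries. For the 6 targeted MDA-MB-231 libraries the labels contradict each other on the guides, so they were kept as sets named by neither: set 1 (titles with gRNA 4, columns with all guides) and set 2 (titles with all guides, columns with gRNA 4).

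ZEB1 levels followed the labels of targeted and untargeted libraries. This check cannot tell which guides a targeted library got, nor No gRNA from wild type. ZEB1 lay between 65.6 and 121.9 CPM (counts scaled for library size by TMM over the 27 libraries) in untargeted libraries and between 0.376 and 5.74 in the 12 targeted ones. Library totals ran from 15461200 to 21473757 estimated counts, and replicates correlated at 0.981 or more across genes. Transcripts of ESR1 and PGR stayed under 1 CPM in every library, whereas ERBB2 averaged 42.1 to 63.1 CPM over the groups. Transcripts of PTPRC, the pan-leukocyte marker, reached 0.294 CPM at most. The sum of 4 immune and endothelial markers was larger and varied by group. Targeted SUM159 libraries spanned 4.35 to 7.93 CPM, and every other library had 4.40 at most (MDA-MB-231 No gRNA). CDH1 (E-cadherin) averaged 17.8 CPM ± 7.03 (SD, n = 3) in set 1, 3.01 ± 1.91 in set 2, 1.88 ± 2.80 in SUM159 All gRNA and under 1 elsewhere. The summed CPM of 5 epithelial markers ranked these sets the other way, with means of 859 (set 2) and 778 (set 1). Untargeted MDA-MB-231 already had means of 243 (wild type) and 251 (No gRNA), whereas the highest SUM159 mean was 6.45 (gRNA 4). VIM (vimentin) was at 1317 CPM or more in every library.

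The members sit on 8 chromosomes (GENCODE release 44 on GRCh38): TRIM28 at chr19:58544064-58550722, SETDB1 at chr1:150926263-150964744, CBX1 at chr17:48070052-48101478, CBX3 at chr7:26201162-26213607, CBX5 at chr12:54230942-54280133, CTBP1 at chr4:1211445-1250333, CTBP2 at chr10:124984317-125161170, HDAC1 at chr1:32292083-32333635, HDAC2 at chr6:113933028-114011308 and KDM1A at chr1:23019443-23083689. Since whether the counting used strand is not given in the sources used here, reads of genes that overlap on opposite strands cannot be told apart in the shared part. CTBP2 shared 30.8% of its exonic bases with ZRANB1, SETDB1 shared 12.9% with CERS2, and CBX3 shared 7.6% with HNRNPA2B1. Processed pseudogenes named after a member carried less than 1% of that member's CPM in every library.

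The E-box that ZEB1 binds, CAGGTG, which reads CACCTG on the opposite strand, was searched on both strands in the RefSeq promoter windows, from 250 bases before to 50 after each start (GRCh38.p14). Of the 18 windows of 9 members, 2 held a match, or 11.1%, against 20.6% of all 35116 windows. TRIM28 had no window in that table. The matches, shown because they are the places in these promoters where the letters of the silenced factor's motif occur, were in CBX5 at chr12:54280265-54280294, 160 bases before the start, and in CTBP1 at chr4:1250336-1250365, beginning at base 3 after it. They read as follows on the gene's strand (minus for both), with the motif in capitals.
CBX5: attaagaagttcCACCTGcctctgagaaca
CTBP1: aagctctggtgaCACCTGccaggtttcctc

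The stretch just before the RefSeq start that no annotated exon covers is shown as well for CBX5 and CBX1, the members called on targeting in SUM159. That of CBX5, chr12:54280134-54280192 on the minus strand, has exons of CBX5 and HNRNPA1 in its window, has 59 bases and is 62.7% G or C. That of CBX1, chr17:48101199-48101267 on the minus strand, has 69 bases and is 84.1% G or C. It precedes the RefSeq start but lies inside the GENCODE span of CBX1 (chr17:48070052-48101478), which begins further upstream. Neither stretch held the E-box, and the window of CBX1 held none either.
CBX5: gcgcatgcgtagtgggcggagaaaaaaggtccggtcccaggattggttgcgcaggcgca
CBX1: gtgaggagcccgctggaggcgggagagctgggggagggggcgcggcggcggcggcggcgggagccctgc

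All 10 genes were well expressed in every group. Per kilobase of the canonical transcript, the scale on which levels of different genes can be compared, CBX3 ranked first (112 to 218 CPM per kb), TRIM28 second (68.8 to 133) and SETDB1 last (4.77 to 11.5) in all 9 groups. The methyltransferase was thus the least abundant transcript of the set on this scale, far below its scaffold. With the length of all exons of the gene in place of the canonical transcript, TRIM28 ranked first in 8 of the 9 groups and CBX3 in 1, and SETDB1 was last in 8.

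As a set the cofactors spanned less over the groups than most genes, which were not matched to them for expression level. Genes with few counts can span more by sampling alone, and the part of this in the ranks below was not tested. On the log2 CPM scale, the distance between the highest and lowest of the 9 group means was below the median of 17319 genes, 1.72 on the log2 scale, for each of the 10. HDAC2 moved least, by 0.42 (the lowest 0.84% of genes), then CTBP1 with 0.53 (2.31%). HDAC1, its close paralog, moved most, by 1.64 (47.0%), from 52.7 CPM ± 4.60 in SUM159 No gRNA to 164 ± 12.1 in MDA-MB-231 wild type. The plot of CPM by library shows these levels.

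**Figure D1:**
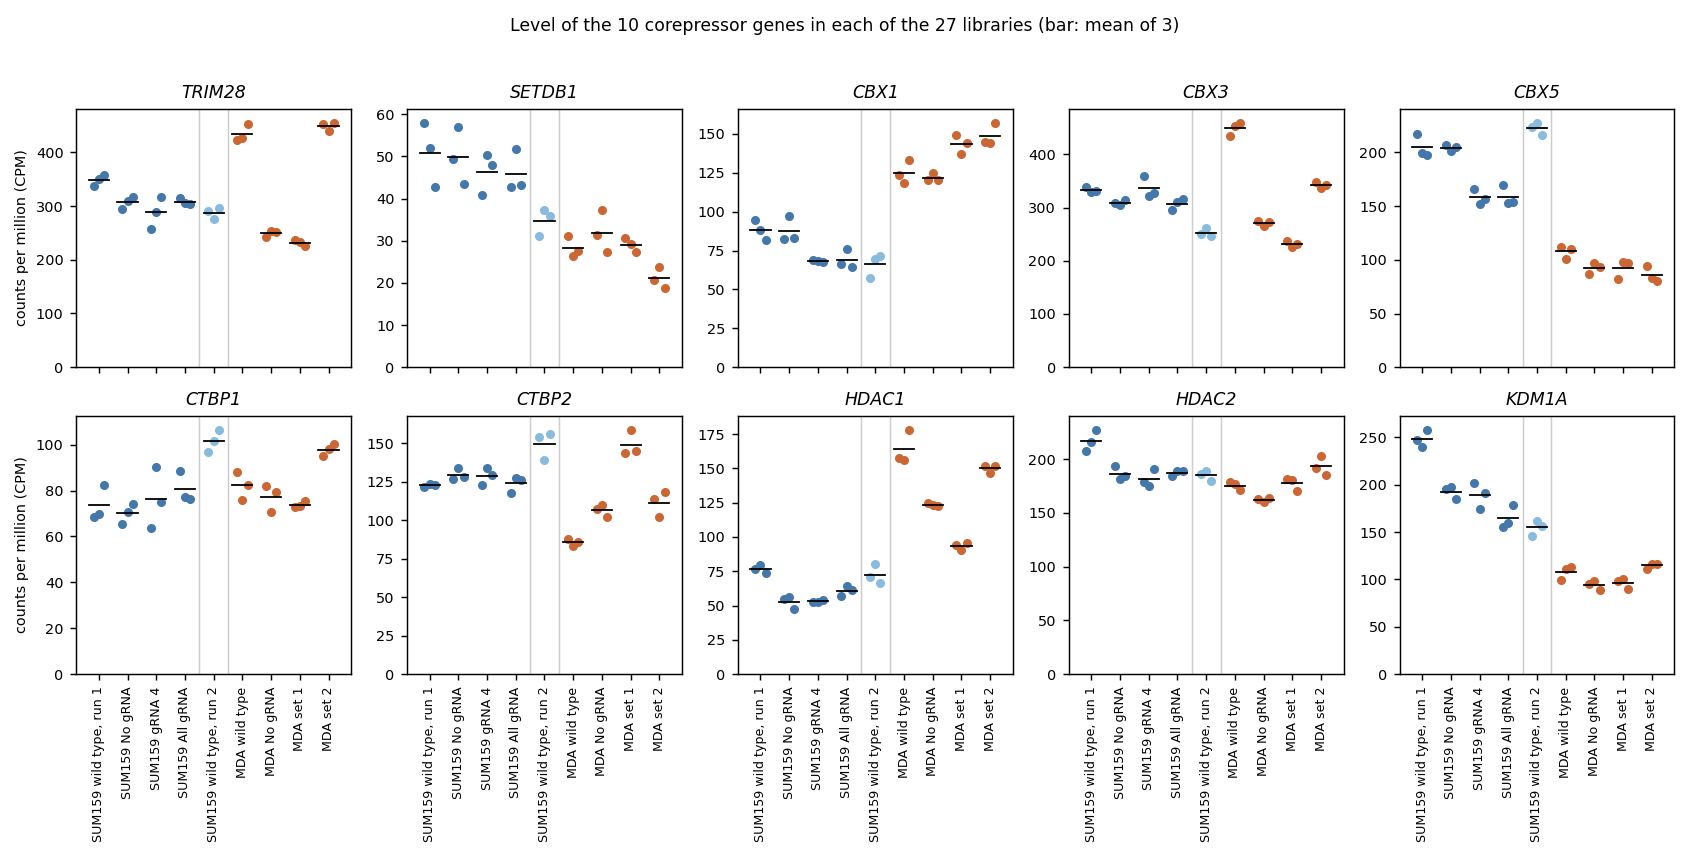
CPM (vertical axis, from 0, with a scale for each gene) of the 10 genes in the 27 libraries; points are libraries, bars the mean of 3, dark blue SUM159 run 1, light blue SUM159 wild type of run 2, and orange MDA-MB-231 (MDA on the axis). CBX5 and KDM1A are higher in every SUM159 library than in any MDA-MB-231 library, HDAC1 and CBX1 are lower, and TRIM28 and CBX3 are split within MDA-MB-231.

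The lines were compared between their wild type groups of run 2, by voom-limma with Benjamini-Hochberg adjustment over 16473 genes (the moderated test, as for every adjusted p here unless another is named). It called 8 of the 10 members, 4 higher and 4 lower in SUM159, while 73.0% of all genes were called (33.8% higher, 39.2% lower), so the share of members is close to that of all genes. The median absolute difference of the members was 0.70, against 0.87 for all genes (log2). Line and culture medium cannot be told apart in this comparison.

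The HP1 paralogs went in opposite directions. CBX5 had 223.6, 227.0 and 216.5 CPM in SUM159 and 112.3, 101.1 and 110.4 in MDA-MB-231, a log2 difference of 1.01 ± 0.07 (SE; adjusted p = 7.97e-09). CBX1 had 57.5, 69.3 and 71.6 CPM in SUM159 and 123.4, 118.3 and 133.4 in MDA-MB-231 (-0.96 ± 0.08, adjusted p = 5.62e-08). CBX3 was lower in SUM159 too, at 252 CPM ± 7.65 against 449 ± 12.4 (-0.87 ± 0.03, adjusted p = 1.17e-11). Thus HP1 alpha transcripts were about 2-fold higher, and those of HP1 beta and gamma nearly 2-fold lower, in SUM159. Libraries of both lines did not overlap for 9 of the 10 members, these 3 among them, where 73.0% of all genes were called.

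HDAC1 showed the widest gap. Its CPM was 71.0, 80.1 and 66.7 in SUM159 and 157.3, 156.4 and 177.7 in MDA-MB-231 (-1.21 ± 0.06, adjusted p = 7.01e-10), and it was the sole member past the stricter TREAT test of a log2 change beyond 1 (adjusted p = 0.0103, voom-limma; 28.8% of all genes passed). That call was lost without SUM159 wild type run 2 replicate 3. HDAC2, by contrast, differed by 0.04 with a 95% interval of -0.05 to 0.13. Of the other cofactors TRIM28 was lower in SUM159 (-0.63 ± 0.04, adjusted p = 1.32e-09), whereas CTBP2 (0.77 ± 0.07), KDM1A (0.48 ± 0.06) and CTBP1 (0.27 ± 0.06) were higher, with adjusted p of 1.36e-07, 5.15e-06 and 0.00148. ZRANB1, whose exons overlap those of CTBP2, averaged 61.5 CPM ± 6.21 in SUM159 and 34.3 ± 3.15 in MDA-MB-231. In SUM159 wild type of run 1 ZRANB1 averaged 74.9 ± 9.88. The part of ZRANB1 reads in the CTBP2 difference was not tested. SETDB1 (0.26 ± 0.12, adjusted p = 0.068) did not pass.

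These differences have to be read beside the spread between runs of the same line. SUM159 wild type of run 2 differed from that of run 1 in 8 of 10 members, when 62.1% of 14337 genes were called (31.3% higher, 30.9% lower). The sequencing run and the culture it came from cannot be told apart. KDM1A was 247.3, 239.9 and 257.4 CPM in run 1 and 146.3, 162.1 and 156.5 in run 2 (-0.68 ± 0.05, adjusted p = 3.86e-05). SETDB1 (-0.55 ± 0.13), CBX1 (-0.42 ± 0.10), CBX3 (-0.40 ± 0.04), TRIM28 (-0.28 ± 0.04) and HDAC2 (-0.23 ± 0.05) were lower in run 2 as well, CTBP1 (0.47 ± 0.08) and CTBP2 (0.28 ± 0.06) were higher, and CBX5 (0.12 ± 0.05, adjusted p = 0.068) and HDAC1 (-0.08 ± 0.08, adjusted p = 0.36) did not pass. With run 1 in place of run 2, the sign of CTBP1 between the lines reversed (-0.20, adjusted p = 0.0267), and HDAC2 (0.27) and SETDB1 (0.80) passed. The signs of the other 7 called members held. The summed level of 12 proliferation markers moved with both comparisons: it averaged 1251 CPM in SUM159 wild type of run 2, 3582 in MDA-MB-231 wild type and 2404 in SUM159 wild type of run 1, with 11 of 12 lower in SUM159 between the lines and 10 of 12 lower in run 2 between the runs. Their part in the differences was not tested.

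**Figure D2:**
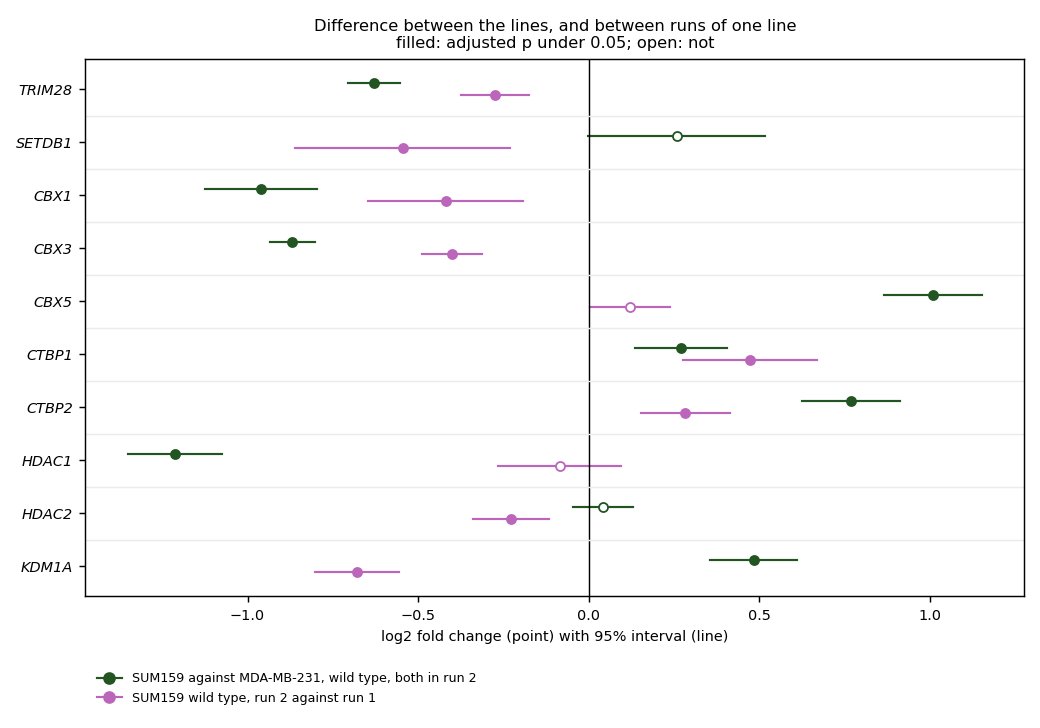
Log2 fold change (horizontal axis) of each gene between wild type SUM159 and MDA-MB-231, both in run 2 (green), and between run 2 and run 1 of wild type SUM159 (purple); lines are 95% intervals and filled points have an adjusted p under 0.05. HDAC1 and CBX5 differ between the lines by over 1 and do not pass between the runs, whereas KDM1A differs by 0.68 between the runs.

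Next, targeting was compared with the No gRNA vector within SUM159. The log2 change of ZEB1 was -6.70 with All gRNA (adjusted p = 1.87e-07) and -4.45 with gRNA 4 (adjusted p = 6.83e-08). CBX1 and CBX5 were the only members called, both lower, with All gRNA and with gRNA 4 alike. All genes were called at 10.8% and 11.0% of 15147 (4.89% and 4.91% lower), so 2 of 10 members is a share to be read against these backgrounds. Both comparisons share the No gRNA libraries and are given side by side. The median change of the members was -0.04 in each, and that of all genes 0.00.

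CBX5, which encodes HP1 alpha, read 206.7, 201.7 and 204.9 CPM with No gRNA, 169.4, 153.1 and 154.0 with All gRNA and 165.9, 152.3 and 156.6 with gRNA 4. All 6 targeted libraries were below all 3 No gRNA libraries, and below the 3 wild type libraries of the same run (217.3, 199.1 and 197.9). The log2 change was -0.37 ± 0.06 (SE; adjusted p = 0.00193) with All gRNA and -0.38 ± 0.06 (adjusted p = 0.00146) with gRNA 4, or -22.5% and -23.1%. For No gRNA against wild type the log2 change was -0.01 (95% interval -0.13 to 0.11).

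CBX1, which encodes HP1 beta, was at 82.4, 97.3 and 83.2 CPM with No gRNA, at 66.3, 76.1 and 64.5 with All gRNA and at 69.2, 68.4 and 67.7 with gRNA 4. Again the groups did not overlap, but 1 No gRNA library was well above the other two. Its log2 change was -0.34 ± 0.09 (adjusted p = 0.0259) and -0.36 ± 0.09 (adjusted p = 0.0213), and for No gRNA against wild type -0.02 (95% interval -0.20 to 0.16). With All gRNA the call was lost without All gRNA replicate 1 or replicate 3 or No gRNA replicate 2, and with gRNA 4 it was lost without gRNA 4 replicate 2 or replicate 3 or No gRNA replicate 2. In these 6 fits the log2 change was -0.27 to -0.32 with All gRNA and -0.29 to -0.36 with gRNA 4. CBX1 in wild type SUM159 of run 2, at 57.5, 69.3 and 71.6 CPM, overlapped both targeted groups, which were sequenced in run 1.

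**Figure D3:**
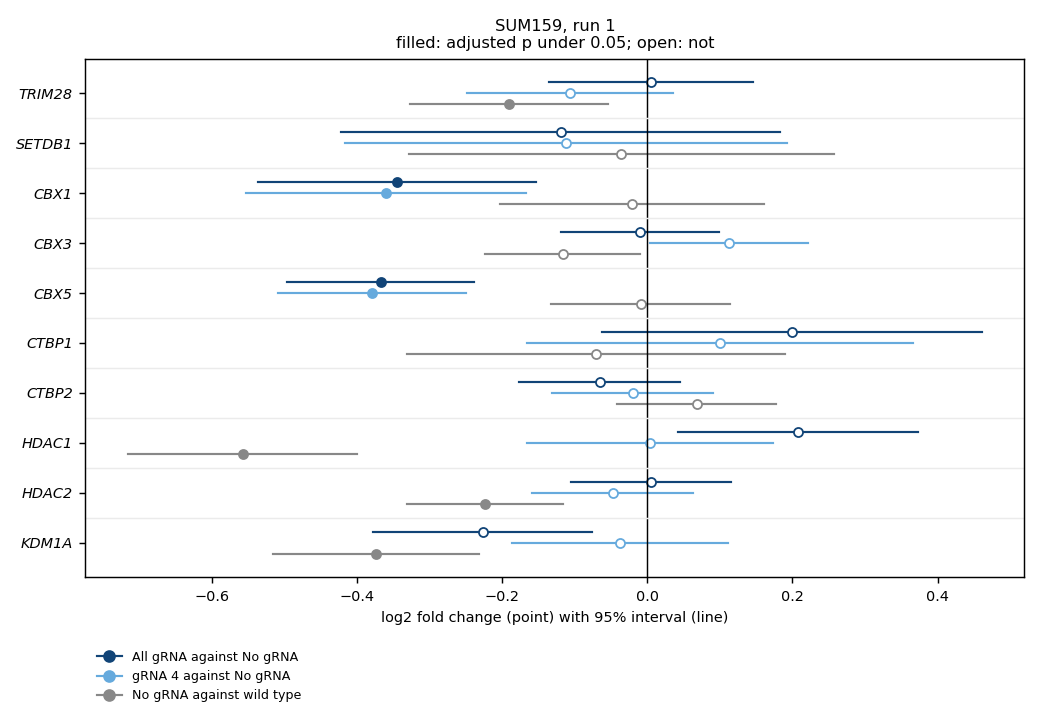
Log2 fold change (horizontal axis) of the 10 genes in SUM159 of run 1 for All gRNA and gRNA 4 against No gRNA (dark and light blue) and for No gRNA against wild type (grey); lines are 95% intervals and filled points have an adjusted p under 0.05. CBX1 and CBX5 are lower with either guide set and near 0 in the vector comparison, whereas HDAC1, HDAC2, KDM1A and TRIM28 are lower in the vector comparison.

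No other member passed in SUM159. For the KRAB arm, TRIM28 changed by 0.01 (95% interval -0.14 to 0.15) with All gRNA and by -0.11 (-0.25 to 0.04) with gRNA 4, CBX3 by -0.01 (-0.12 to 0.10) and 0.11 (0.00 to 0.22), and SETDB1 by -0.12 (-0.42 to 0.18) and -0.11 (-0.42 to 0.19). Among the CtBP corepressors, CTBP2 changed by -0.07 (-0.18 to 0.05) and -0.02 (-0.13 to 0.09), and CTBP1 by 0.20 (-0.06 to 0.46) and 0.10 (-0.17 to 0.37). HDAC2 changed by 0.01 (-0.10 to 0.12) and -0.05 (-0.16 to 0.06). These intervals leave little room for a change of 2-fold, and the TREAT test at a log2 change of 1 called 0 members in either comparison, with 0 at an unadjusted p under 0.05 and 0 by edgeR's glmTreat; 0.396% and 0.390% of all genes passed it.

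KDM1A and HDAC1 fell short of the threshold with All gRNA. KDM1A read 195.8, 197.1 and 184.7 CPM with No gRNA and 155.5, 159.6 and 179.1 with All gRNA (-0.23 ± 0.07, adjusted p = 0.0575). HDAC1 read 54.5, 56.1 and 47.4 CPM with No gRNA and 56.9, 64.0 and 61.1 with All gRNA (0.21 ± 0.08, adjusted p = 0.108). In both genes the libraries did not overlap, which held for 5 of 10 members with All gRNA and 27.2% of all genes. KDM1A passed without All gRNA replicate 3, by DESeq2 and when library totals were not scaled by TMM. With gRNA 4 the log2 change was -0.04 for KDM1A and 0.00 for HDAC1, with adjusted p of 0.792 and 0.988.

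A direct comparison of All gRNA with gRNA 4 called 0 members by voom-limma, and 0 by edgeR's quasi-likelihood test and by DESeq2; 3 had an unadjusted p under 0.05 (HDAC1 0.20, KDM1A -0.19 and CBX3 -0.12 on the log2 scale), and 0.944% of all genes were called. For CBX5 the difference between the guide sets was 0.01 with an interval of -0.12 to 0.15, and for CBX1 0.02 with -0.18 to 0.21.

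No gRNA was also compared with wild type, from which it differs by the vector, by selection and by clone, and these cannot be told apart. SUM159 No gRNA was lower than wild type in 4 of 10 members and higher in none, when 42.9% of all genes were called (21.9% lower), so the share of members is near that of all genes. HDAC1 went from 77.0, 79.6 and 73.9 CPM in wild type to 54.5, 56.1 and 47.4 in No gRNA (-0.56 ± 0.07, adjusted p = 8.59e-05). KDM1A fell by 0.37 (SE 0.06, adjusted p = 0.00073), HDAC2 by 0.22 (SE 0.05, adjusted p = 0.00324) and TRIM28 by 0.19 (SE 0.06, adjusted p = 0.0284); the last was lost in 4 of 6 fits without 1 library (No gRNA replicate 1 or replicate 2, wild type replicate 2 or replicate 3). HDAC1, HDAC2, KDM1A and TRIM28 were thus lower in No gRNA than in wild type and did not pass on targeting. ZEB1 itself did not pass between No gRNA and wild type (-0.12 ± 0.09). Of the 12 proliferation markers 9 were lower and 1 higher in this comparison, with a summed level of 2365 to 2425 CPM in wild type and 2042 to 2183 in No gRNA; their part in the result was not tested.

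With wild type as the control in place of No gRNA, 6 members were lower in each targeted SUM159 group, against 48.7% of all genes called for All gRNA and 46.8% for gRNA 4. The 6 members were CBX1 (-0.37 and -0.38), CBX5 (-0.38 and -0.39), HDAC1 (-0.35 and -0.55), HDAC2 (-0.22 and -0.27), KDM1A (-0.60 and -0.41) and TRIM28 (-0.18 and -0.30), with All gRNA given first. HDAC1, HDAC2, KDM1A and TRIM28 thus passed against this control and not against No gRNA, while CBX5 and CBX1 passed against both.

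In MDA-MB-231 more members moved, and set 1 and set 2 did not move alike. The moderated test called 5 of 10 in set 1 (3 higher, 2 lower), when 37.8% of 15721 genes were called (20.4% higher, 17.3% lower). It called 8 of 10 in set 2 (7 higher, 1 lower), when 52.4% were called (27.3% higher, 25.1% lower). The log2 change of ZEB1 was -4.36 in set 1 and -4.54 in set 2, and its levels in the sets did not differ beyond their spread (-0.18 ± 0.23, adjusted p = 0.528). Both comparisons use the same No gRNA libraries.

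TRIM28, the KAP1 scaffold, differed most. It read 242.7, 253.4 and 252.5 CPM with No gRNA, 236.7, 232.5 and 224.8 in set 1, 452.5, 440.2 and 453.7 in set 2 and 422.2, 426.7 and 452.9 in wild type. Set 2 and wild type were thus high and set 1 and No gRNA low, and libraries of the high and low groups did not overlap. Against No gRNA the log2 change was 0.87 ± 0.03 in set 2 (adjusted p = 3.24e-09) and -0.10 ± 0.04 in set 1 (adjusted p = 0.0517). The lower value in set 1 passed by edgeR's quasi-likelihood test (-0.11, adjusted p = 0.025) and DESeq2 (-0.12, adjusted p = 0.00698) and without No gRNA replicate 1. Against wild type, set 2 differed by 0.02 ± 0.03 (adjusted p = 0.702).

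SETDB1 was the member that went the other way in set 2. Its CPM was 31.2, 37.2 and 27.2 with No gRNA, 30.6, 29.2 and 27.4 in set 1, 20.7, 23.7 and 18.8 in set 2 and 31.1, 26.5 and 27.5 in wild type. The set 2 libraries were below the other 9 MDA-MB-231 libraries (-0.56 ± 0.13 against No gRNA, adjusted p = 0.00308; -0.45 ± 0.13 against wild type, adjusted p = 0.0184). CERS2, which shares exonic bases with it on the opposite strand, averaged 273 CPM ± 15.4 in set 2 and 220 ± 24.2 in No gRNA. Set 2 had the highest mean CPM of TRIM28 among the 9 groups and the lowest of SETDB1.

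The HP1 genes were split. CBX1 was higher in both sets, at 149.5, 137.3 and 144.1 CPM in set 1 and 144.8, 144.3 and 156.7 in set 2 against 120.3, 124.9 and 120.1 with No gRNA (0.24 ± 0.05, adjusted p = 0.00452, and 0.31 ± 0.05, adjusted p = 0.000507). CBX3 read 236.4, 225.7 and 231.4 CPM in set 1, 348.0, 336.8 and 341.4 in set 2, 274.8, 264.8 and 272.6 with No gRNA and 434.7, 454.0 and 457.9 in wild type. It fell in set 1 (-0.22 ± 0.03, adjusted p = 0.000348) and rose in set 2 (0.36 ± 0.03, adjusted p = 2.24e-06), but relative to wild type it was lower in both (-1.01 and -0.42). HNRNPA2B1, its overlapping neighbour, followed the same order over the groups only in part, with 580 CPM in set 1, 757 in No gRNA, 1068 in wild type and 1298 in set 2. CBX5 did not pass in either set (0.00, interval -0.18 to 0.19, and -0.08, interval -0.27 to 0.10).

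Among the CtBP corepressors CTBP2 rose in set 1, from 107.4, 109.9 and 102.0 CPM with No gRNA to 143.7, 158.4 and 145.3 (0.49 ± 0.06, adjusted p = 6.63e-05), and did not pass in set 2 (0.09 ± 0.06). CTBP1 showed the opposite: it rose in set 2 from 82.0, 70.7 and 79.3 CPM to 95.1, 98.2 and 100.2 (0.36 ± 0.06, adjusted p = 0.000523) and did not pass in set 1 (-0.06 ± 0.07). The direct test between the sets passed for both, with CTBP2 lower in set 2 (-0.40 ± 0.06, adjusted p = 0.000155) and CTBP1 higher (0.42 ± 0.07, adjusted p = 0.000212). ZRANB1, which overlaps CTBP2, averaged 56.6 CPM ± 2.82 in set 1 and 54.1 ± 1.67 in No gRNA.

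HDAC1 fell in set 1 and rose in set 2. It read 124.9, 123.0 and 122.5 CPM with No gRNA, 94.4, 90.1 and 95.8 in set 1 and 151.4, 146.9 and 151.9 in set 2, with no overlap between any of these groups (-0.40 ± 0.06, adjusted p = 0.000186, and 0.30 ± 0.05, adjusted p = 0.000351). HDAC2 was higher in both (0.14 ± 0.04, adjusted p = 0.0283, and 0.28 ± 0.04, adjusted p = 0.000202), but in set 1 the call was lost in 5 of 6 fits without 1 library (all but that without set 1 replicate 3). KDM1A rose in set 2 (0.31 ± 0.06, adjusted p = 0.00144) and not in set 1 (0.04 ± 0.06). Neither set had a member past the TREAT test at a log2 change of 1, with 0 at an unadjusted p under 0.05 and 0 by edgeR's glmTreat, against 1.47% and 4.14% of all genes.

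**Figure D4:**
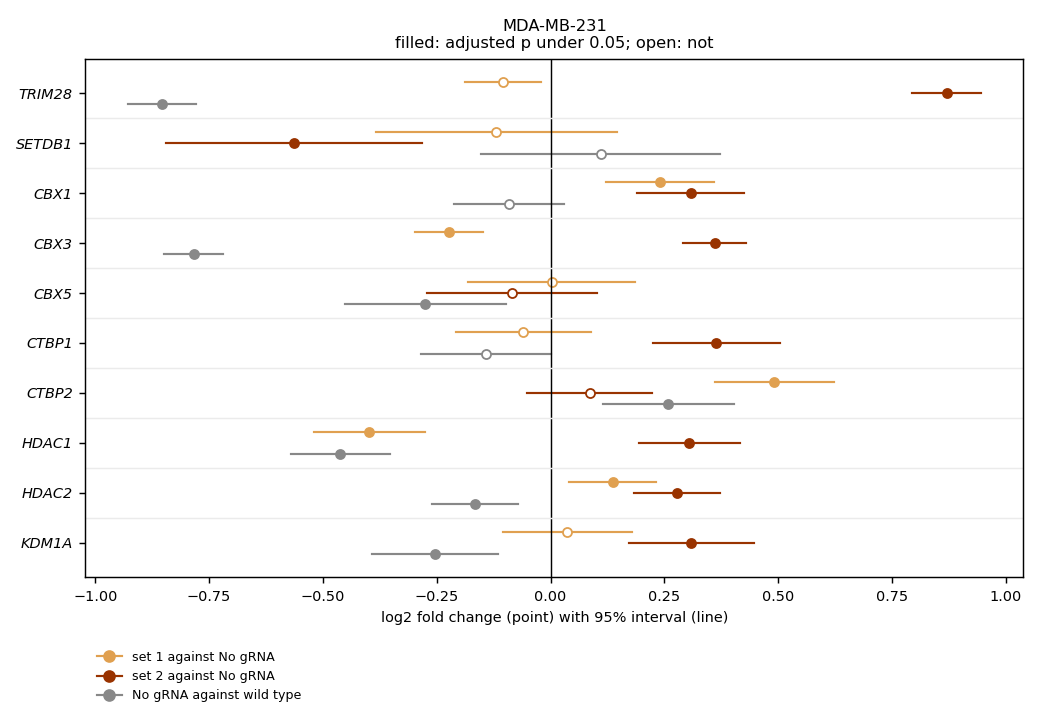
Log2 fold change (horizontal axis) of the 10 genes in MDA-MB-231 for set 1 and set 2 against No gRNA (light and dark orange) and for No gRNA against wild type (grey); lines are 95% intervals and filled points have an adjusted p under 0.05. TRIM28 is at 0.87 in set 2 and at -0.85 in the vector comparison, and CBX3 and HDAC1 lie on opposite sides of 0 in the sets.

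The direct test of set 2 against set 1 called 8 of 10 members, with 51.5% of all genes called (25.2% higher, 26.3% lower). TRIM28 (0.97 ± 0.04), HDAC1 (0.70 ± 0.05), CBX3 (0.58 ± 0.03), CTBP1, KDM1A (0.27 ± 0.06) and HDAC2 (0.14 ± 0.04) were higher in set 2, while SETDB1 (-0.44 ± 0.13) and CTBP2 were lower. The calls of SETDB1 and HDAC2 were each lost in 2 of the 6 fits without 1 library (SETDB1 without set 2 replicate 3 or set 1 replicate 1, HDAC2 without set 2 replicate 2 or set 1 replicate 3). CBX1 (0.07 ± 0.05) and CBX5 (-0.09 ± 0.09) did not pass.

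MDA-MB-231 No gRNA likewise differs from wild type by vector, selection and clone. It differed from wild type in 7 of 10 members, 6 lower and 1 higher, when 53.8% of all genes were called (26.2% higher, 27.6% lower). TRIM28 (-0.85 ± 0.03), CBX3 (-0.78 ± 0.03), HDAC1 (-0.46 ± 0.05), CBX5 (-0.27 ± 0.08), KDM1A (-0.25 ± 0.06) and HDAC2 (-0.17 ± 0.04) were lower, and CTBP2 (0.26 ± 0.07) was higher, with adjusted p between 2.2e-09 and 0.0135. ZRANB1, the neighbour of CTBP2, averaged 54.1 CPM ± 1.67 in No gRNA and 34.3 ± 3.15 in wild type. Its part in the CTBP2 value was not tested. The call for CBX5 was lost without No gRNA replicate 1. Since the sets are measured against these same No gRNA libraries, the values against wild type are given as well. Against wild type 8 members were called in set 1 (2 higher, 6 lower; 59.5% of all genes) and 7 in set 2 (3 higher, 4 lower; 36.3% of all genes). In set 2 the changes of TRIM28 (0.02), KDM1A (0.06) and HDAC2 (0.11) then did not pass, CBX3 (-0.42) and HDAC1 (-0.16) were lower instead of higher, and CBX5 (-0.36) became lower, while CBX1 (0.22), CTBP1 (0.22) and CTBP2 (0.35) were higher. In set 1 the falls of CBX3 (-1.01), TRIM28 (-0.96) and HDAC1 (-0.86) and the rise of CTBP2 (0.75) were larger than against No gRNA.

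Proliferation markers moved with these groups. The 12 genes, among them MKI67 and CDK1, summed to 3512 to 3660 CPM in MDA-MB-231 wild type, 1782 to 1870 with No gRNA, 1318 to 1437 in set 1 and 3036 to 3130 in set 2. All 12 were called higher in set 2 and lower in No gRNA against wild type, and 10 were lower and 1 higher in set 1. TRIM28, CBX3 and HDAC1 had the same 2 groups high and the same 2 low, and of the MDA-MB-231 groups CTBP2 had its highest mean in set 1, where the markers were lowest. In SUM159 of run 1 the summed level spanned 2042 to 2425 CPM, with 2 of 12 called higher and 1 lower on All gRNA and 2 higher and 2 lower on gRNA 4. The targeted libraries, in which CBX1 and CBX5 were lower, spanned 2107 to 2345. Their part in the changes in MDA-MB-231 was not tested. In bulk RNA, fewer cells with a transcript and less of it per cell cannot be told apart.

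Whether targeting acted unlike in the lines was tested by the difference of the mean effect of both targeted groups against No gRNA, SUM159 minus MDA-MB-231, in 1 fit of 24 libraries. It called 6 of 10 members, all with a negative difference, when 25.4% of 17182 genes were called (12.4% negative). Line, culture medium, puromycin dose and sequencing run cannot be told apart in this test. CBX1 had opposite effects, -0.35 ± 0.07 in SUM159 and 0.25 ± 0.06 in MDA-MB-231 (difference -0.60 ± 0.09, adjusted p = 2.81e-05). The call and sign of CBX1 held with set 1 alone (-0.57), with set 2 alone (-0.64) and against wild type (-0.60). CBX5 fell in SUM159 (-0.37 ± 0.05) and not in MDA-MB-231 (-0.06 ± 0.07), with a difference of -0.31 ± 0.09 (adjusted p = 0.0125) that was lost without MDA-MB-231 No gRNA replicate 1 and against wild type (-0.11, adjusted p = 0.333).

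For the other members the difference depended on the set. The mean effect in SUM159 was -0.05 for TRIM28, -0.04 for CTBP2, -0.02 for HDAC2 and -0.13 for KDM1A, and none passed. The mean effect in MDA-MB-231 was 0.36, 0.27, 0.19 and 0.15 in the same order, and all but that of KDM1A passed. TRIM28 (-0.41 ± 0.07, adjusted p = 8e-05) rested on set 2: it was -0.90 with set 2 alone and 0.08 (adjusted p = 0.502) with set 1 alone, and 0.19 (adjusted p = 0.0165) against wild type. CTBP2 (-0.31 ± 0.07, adjusted p = 0.00163) rested on set 1, with -0.51 there and -0.10 (adjusted p = 0.281) with set 2 alone. HDAC2 (-0.20 ± 0.06) and KDM1A (-0.28 ± 0.08), at adjusted p of 0.00947 and 0.0168, passed with set 2 alone and not with set 1 alone, and KDM1A was also lost without MDA-MB-231 No gRNA replicate 3. SETDB1 (0.25 ± 0.17), HDAC1 (0.18 ± 0.08), CTBP1 (0.02 ± 0.12) and CBX3 (0.01 ± 0.05) did not pass with both sets. CBX3 passed in opposite directions with each set alone (0.30 with set 1, -0.28 with set 2), and HDAC1 passed with set 1 alone (0.53, adjusted p = 0.000107) and had -0.17 (adjusted p = 0.1) with set 2 alone. Against wild type, with both sets, CBX3 passed (0.61, adjusted p = 1.37e-09). CTBP2 (-0.56), KDM1A (-0.47) and HDAC2 (-0.33) passed against wild type as well, and SETDB1 (0.04), CTBP1 (0.03) and HDAC1 (0.01) did not.

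Other genes of these pathways, from lists by function, were counted in the same fits. Of 18 HP1 and H3K9 writers and TRIM28 partners, 1 was lower in each targeted SUM159 group and none higher: TRIM24, a relative of TRIM28, with All gRNA (-0.31 ± 0.08, adjusted p = 0.0300) and SETDB2, a SETDB1 paralog, with gRNA 4 (-0.33 ± 0.10, adjusted p = 0.0463). In MDA-MB-231 set 1, 1 was higher and 3 lower, and in set 2, 9 were higher and 1 lower. For these and the next lists, the shares of all genes to read the counts against are 20.4% higher and 17.3% lower in set 1, and 27.3% higher and 25.1% lower in set 2. SUV39H1, an H3K9 methyltransferase, rose in set 2 by 1.47 ± 0.14 (adjusted p = 4.88e-06), and EHMT2 (G9a), which makes the dimethyl mark, by 0.99 ± 0.19 (adjusted p = 0.000883), having been lower by 0.90 ± 0.25 in set 1 (adjusted p = 0.0135). Both were lower in No gRNA than in wild type (-1.30 and -1.18). The list median in set 2 was 0.24, against -0.01 for all genes.

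Of 11 NuRD subunits 1 was lower in each targeted SUM159 group, RBBP4 with All gRNA (-0.20 ± 0.06) and MTA2 with gRNA 4 (-0.31 ± 0.07), at adjusted p of 0.0425 and 0.0176. Set 1 had 1 higher and 4 lower (37.8% of all genes called), and set 2 had 6 higher and 2 lower (52.4% called). Those of set 2 include MBD3 (0.61 ± 0.08), a subunit of the methyl-CpG-binding-domain family, which was higher. They also include CHD3 (-0.87 ± 0.33), a remodelling ATPase, which was lower. Of 11 CoREST, LSD1 and CtBP partners, 4 were lower and none higher in set 2 and 7 were not called, beside 25.1% of all genes lower. The 4 include PHF21A (BHC80), which reads unmethylated H3K4, by -1.86 ± 0.19 (adjusted p = 7.42e-06) and ZNF217 by -0.69 ± 0.07 (adjusted p = 1.11e-05). In set 1, 3 were higher, with KDM1B, the paralog of KDM1A, at 0.76 ± 0.10, and 4 lower. ZNF217 was the sole one of 10 tested called in SUM159, higher with All gRNA (0.29 ± 0.08, adjusted p = 0.0334) and gRNA 4 (0.40 ± 0.08, adjusted p = 0.00514).

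The list of other ZEB1 partners and class I deacetylases had 0 of 10 called in either targeted SUM159 group by voom-limma, with 1 (All gRNA) and 3 (gRNA 4) at an unadjusted p under 0.05. The shares called in the sets, 4 of 10 and 5 of 10, were near those of all genes (37.8% and 52.4%). In set 1, 1 was higher and 3 lower (HDAC8, a class I deacetylase, -0.68 ± 0.11), and in set 2, 3 were higher (SMARCA4, the BRG1 ATPase that ZEB1 binds, 0.60 ± 0.06, adjusted p = 7.61e-06) and 2 lower (KAT2B, an acetyltransferase, -0.45 ± 0.14). Of 5 H3K9 demethylases 0 were called in SUM159 by voom-limma, with 0 and 2 at an unadjusted p under 0.05, and 2 were lower in each MDA-MB-231 set, KDM4A in both (-0.38 ± 0.10 and -0.44 ± 0.10).

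Across the 9 group means the members did not form a block that moved together. The highest Pearson correlations of log2 CPM were 0.875 for CBX5 with KDM1A and 0.836 for TRIM28 with CBX3 and for SETDB1 with KDM1A, and the lowest were -0.865 for CBX1 with CBX5 and -0.861 for SETDB1 with HDAC1. The points share lines, runs and controls (n = 9), so the values are descriptive. By the same measure, the gene most like a member over these 9 means was BIRC5 (survivin) for CBX3 (r = 0.979), HAUS8 for TRIM28 (0.982), CARD16 for SETDB1 (0.985), ARHGAP20 for CBX1 (0.993), NPIPA9 for CBX5 (0.99), CASKIN2 for CTBP1 (0.976), TTC1 for HDAC1 (0.99), PRKAR2A for HDAC2 (0.966) and SENP1 for KDM1A (0.996).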

How the data were processed

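The authors quantified the reads with Salmon on GRCh38 and, per the methods, summarised them with tximport as length-scaled TPM. The deposited values are therefore estimated counts per gene. The Salmon version, its index and whether strand was used are not given in the sources used here. Of 57165 gene identifiers, 56347 matched a symbol. Genes passing filterByExpr (minimum count 10) were tested with TMM scaling and voom in limma 3.58.1 (edgeR 4.0.16, R 4.3.3), by the moderated test against 0 and by TREAT beyond a log2 change of 1. Calls had a p under 0.05 after Benjamini-Hochberg adjustment over all genes of the fit. Fits held the 12 libraries of a line in its own run, the 15 libraries of run 2 for the line comparison, 6 for the run comparison and 24 for the difference of effects. Counts were rounded for DESeq2 1.42.0 and edgeR's quasi-likelihood test. Scripts were tested on simulated data. CPM are shown with TMM over 27 libraries. The genes and lists were chosen with earlier results of these data known; named list genes come from the 3 called ones per direction and list with the largest changes, and the nearest gene is that with the highest correlation over 9 group means. The nearest gene of CTBP2 is not reported here.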

Additional observations from a re-analysis of the deposited data

Results flagged for a closer look

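The effect of targeting, SUM159 minus MDA-MB-231, passed the test of the difference itself (voom-limma, adjusted p under 0.05) for 6 members: -0.60 for CBX1, -0.41 for TRIM28, -0.31 for CBX5, -0.31 for CTBP2, -0.28 for KDM1A and -0.20 for HDAC2, on the log2 scale. Line, culture medium, puromycin dose and run cannot be told apart in it, and the targeted MDA-MB-231 libraries carry contradictory guide labels. With groups of 3 libraries no single library was tested for standing apart from its group.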

How the results depend on the processing

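Of 830 member fold changes refitted under other tools, scalings, filters, controls or groups, 783 kept their side of the threshold, 23 newly passed, 11 no longer passed and 13 changed sign with a call in at least 1 of both fits; of 780 refitted without 1 library the numbers were 753, 5, 22 and 0. Values near 0 that passed in neither fit could change sign and are counted with the 783 and the 753. Replicate numbers did not pair the samples (same-number correlations -0.065 to 0.045), and with a replicate block each comparison kept its count of called members (2 for SUM159 All gRNA, 8 for MDA-MB-231 set 2).

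With wild type as the control the count of called members became 6 for SUM159 All gRNA, 6 for gRNA 4 and 8 for MDA-MB-231 set 1, and the sign reversed for TRIM28 (-0.18), HDAC1 (-0.35) and HDAC2 (-0.22) with All gRNA, HDAC1 (-0.55) with gRNA 4, CBX5 (-0.27), HDAC2 (-0.029) and KDM1A (-0.22) in set 1, CBX3 (-0.42) and HDAC1 (-0.16) in set 2, and TRIM28 (0.19) in the difference between lines. That difference also reversed for TRIM28 with set 1 alone (0.076) and CBX3 with set 2 alone (-0.28). With SUM159 wild type of run 1, CTBP1 reversed between lines (-0.20) and TREAT called 2 members and 4702 genes in all. With only the compared groups fitted, the count was 1 for SUM159 All gRNA (CBX1 lost) and 0 by TREAT between lines; these fits hold fewer samples. TREAT at a fold of 1.2 called 1 member for SUM159 No gRNA against wild type, 1 in set 1, 2 in set 2, 3 between the sets, 3 for MDA-MB-231 No gRNA against wild type, 7 between lines, 3 between runs and 1 for the difference between lines. Of all genes it called 2783 of 15147 in the first of these. In MDA-MB-231 it called 2296 (set 1), 4814 (set 2), 4790 (between sets) and 5083 (No gRNA) of 15721. Between lines it called 9889 of 16473, between runs 5880 of 14337 and for the difference 1567 of 17182. HDAC2 in set 1 also lost its call without the filter on low counts (adjusted p = 0.0669, voom-limma) and with library totals (0.362). Per kilobase of all exons, CBX3 ranked first in 1 group and TRIM28 in 8. The cause of these changes was not tested.

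Without 1 library, the count of called members ranged from 1 to 2 for SUM159 All gRNA and for gRNA 4 against No gRNA, and from 0 to 1 by TREAT between lines. With 3 libraries a group, a change of a few percent was not detectable, and SETDB1, the member with the fewest reads, had the widest intervals.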
